A study of Mus musculus with 6 samples.

Results

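The GABA receptor genes described here are Gabra2, Gabra4, Gabra5, Gabrg3 and Gabrd, which encode subunits of the GABA-A receptor, and Gabbr1 and Gabbr2, which encode both subunits of the GABA-B receptor. Every covered CpG cytosine between 1 kb upstream of the gene start and the gene end was taken, following the strand of the gene in GENCODE M21. The 7 genes held 601 of the 890041 cytosines in the table, and each strand of a CpG counted as a separate site. All samples were micro-dissected dentate gyrus from female C57BL/6JRj mice aged 4.5 months with no engineered allele. STD mice (3) lived in standard cages and ENR mice (3) in an enriched environment, and each library came from 1 mouse. Methylation percentages came from RRBS (reduced representation bisulfite sequencing), in which DNA is cut at CCGG and bisulfite separates methylated from unmethylated cytosines. The values are percentages of methylated reads per site with at least 10 reads. Read numbers were not used here, so the depth of single sites is unknown and no counting interval is given.

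GABA is the main inhibitory transmitter of the adult brain. GABA-A receptors are pentameric chloride channels. Alpha2 is typical of synaptic receptors, whereas alpha4, alpha5 and delta are found largely in receptors outside the synapse that carry tonic inhibition, and delta with alpha4 is a known pair in dentate granule cells. GABA-B receptors act through G proteins. Gabbr1 encodes the subunit that binds GABA, Gabbr2 the subunit that couples to the G protein, and Gabbr1 is transcribed from alternative starts. Methylation is usually low at CpG-rich promoters and high in gene bodies. The tissue label could not be compared with marker expression, because only methylation was measured. In bulk tissue, a changed mix of cells and a changed methylation within cells cannot be told apart.

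The sites were spread unevenly over the 7 genes. A promoter site lay within 1 kb of any annotated transcription start of its gene, and all other sites were body sites. On GRCm38, Gabra2 (chr5:70957597-71095849) had 34 promoter sites and 1 body site. Gabra4 (chr5:71569749-71658308) had 23 sites and Gabra5 (chr7:57407672-57510059) 122 sites, all of them promoter sites. Gabrg3 (chr7:56716465-57387188) had 48 promoter and 38 body sites. Gabrd (chr4:155384980-155398112) was nearly unread, with 1 promoter and 4 body sites. Gabbr1 (chr17:37045966-37075067) had 86 sites, all classed as promoter because the gene has 11 annotated starts. Gabbr2 (chr4:46662305-46991873) had 76 promoter and 168 body sites. All 122 Gabra5 sites also lay in the record of another gene, 10 Gabra4 sites in that of Gabrb1 (23 with its upstream 1 kb), and the Gabrd promoter site in that of 5830444B04Rik, so these values belong to both genes. Of the 601 sites, 184 were at 0% in all libraries (30.6%), against 29.8% of all sites.

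Comparing ENR with STD asks whether housing changed methylation at these receptors. Gabbr1 was the gene whose whole window separated the groups, with higher methylation in ENR, and of its clusters the one downstream of 2 internal starts separated the groups. The promoter sites of Gabbr2 also separated the groups by a small margin, again higher in ENR. The promoters of the GABA-A genes other than Gabrd, which had a single promoter site at 67.1% in STD and 41.1% in ENR, were near the unmethylated state in both groups, and the bodies of Gabrg3 and Gabbr2 kept clearly higher levels than their promoters in all 6 libraries. With limma, 0 member genes passed an adjusted p of 0.05 for the whole window, the promoter or the body, as was true of all 22934, 19204 and 12278 genes tested. At an unadjusted p under 0.05, limma gave 1 of 7 member genes for the whole window (3.86% of all genes), 1 of 6 for the promoter (4.43%; Gabbr1, with the sites near its internal starts) and 0 of 3 for the body (3.38%).

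**Figure D1:**
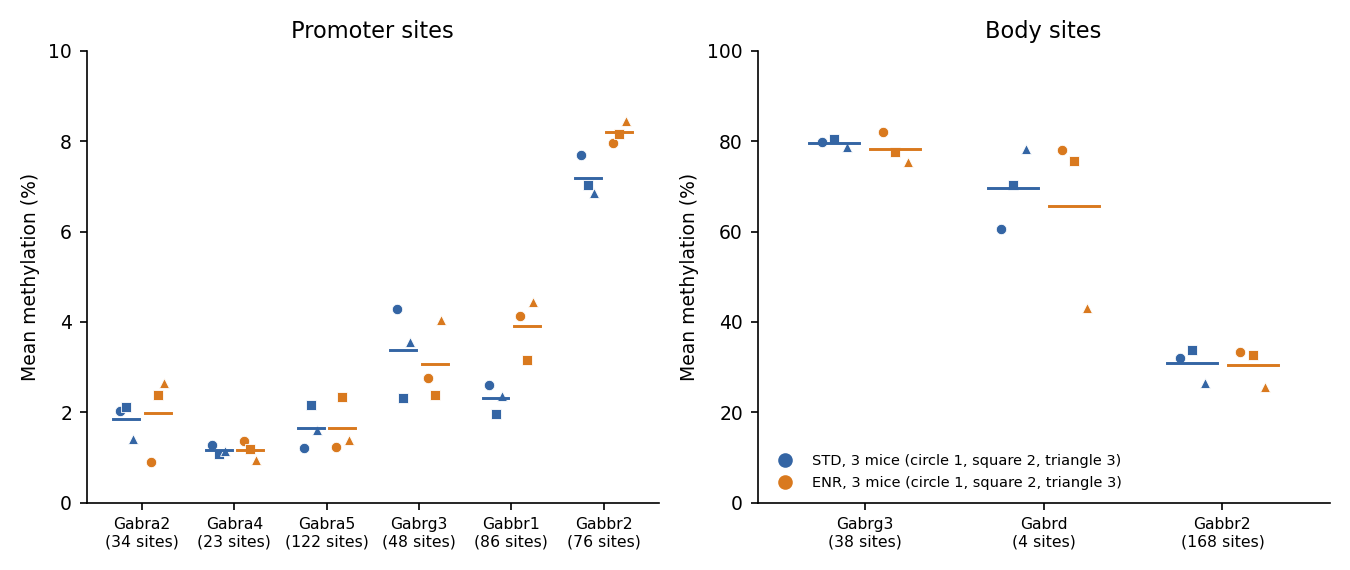
Mean methylation in percent of promoter sites (left, axis to 10%) and body sites (right, axis to 100%) of each gene with at least 3 such sites, with 1 point per mouse, STD in blue, ENR in orange and group means as lines. The promoters lie under 9% in every mouse, the Gabbr1 and Gabbr2 promoter points of ENR lie above those of STD, and ENR3 is the lowest Gabrd point at 43.1%.

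Gabra2, which encodes a synaptic alpha subunit, had a nearly unmethylated promoter. Its promoter mean was 2.02%, 2.11% and 1.41% in STD1 to STD3 and 0.91%, 2.37% and 2.65% in ENR1 to ENR3. The groups overlapped, and their means of 1.85% ± 0.379 and 1.98% ± 0.937 (SD, n = 3 each) differed by 0.13 percentage points (exact permutation test, p = 0.8). The single body site averaged 18.2% ± 6.55 in STD and 10.3% ± 7.66 in ENR, with overlapping groups. The 11 sites upstream of the start were the emptiest, at 0.595% over the 6 libraries. They are shown because 11 CpGs lie within 64 bases with a GC content of 84.4%. The sequence is the plus strand of GRCm38, as are all others below, the gene lies on the minus strand, and capitals mark the CpGs that were measured.
Gabra2 upstream, chr5:71095889-71095952: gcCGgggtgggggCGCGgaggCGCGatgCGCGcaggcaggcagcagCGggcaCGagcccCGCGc

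Gabra4 encodes the alpha subunit paired with delta, and its 23 promoter sites were the lowest of the members. The mean was 1.29%, 1.08% and 1.15% in STD1 to STD3 and 1.38%, 1.18% and 0.951% in ENR1 to ENR3, with overlapping groups. Of the 23 sites, 15 were at 0% in all libraries. The group means were both 1.17% (exact permutation test, p = 1).

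Gabra5 encodes the alpha subunit of tonic receptors typical of hippocampal pyramidal cells. Its 122 sites form 1 dense cluster of 1037 bp over the gene start, with means of 1.22%, 2.16% and 1.61% in STD1 to STD3 and 1.24%, 2.34% and 1.39% in ENR1 to ENR3. The groups overlapped and both means were 1.66% (exact permutation test, p = 1). A single plus-strand cytosine stood out in this cluster, at position 57509165 in an intron 894 bp into the gene. It was at 0%, 0% and 7.14% in STD1 to STD3 and at 21.7%, 11.5% and 55.6% in ENR1 to ENR3. The groups did not overlap and the difference was 27.2 points ± 12.5 (limma SE, adjusted p = 0.852), falling to 14.3 points without ENR3. The minus-strand cytosine of the same CpG did not separate the groups. It read 11.3%, 0.901% and 3.03% in STD1 to STD3 and 6.85%, 10.5% and 4.50% in ENR1 to ENR3. The 18 other sites within 100 bp averaged 2.85% in STD and 1.67% in ENR. The surrounding bases are shown because this CpG, the first in capitals, has methylated readings beside 3 nearly empty neighbours. The cytosine at 57509165 lies in an intron, but 18 of the 62 bases shown lie in an annotated untranslated exon part.
Gabra5 intron, chr7:57509135-57509196: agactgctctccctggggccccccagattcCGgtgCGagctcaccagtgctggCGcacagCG

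Gabrg3 encodes a less common gamma subunit and gave the sharpest contrast between start and body. Its 48 promoter sites averaged 3.39% ± 1.00 in STD and 3.06% ± 0.864 in ENR. The 38 body sites averaged 79.9%, 80.4% and 78.6% in STD1 to STD3 and 82.0%, 77.6% and 75.3% in ENR1 to ENR3, so the groups overlapped (exact permutation test, p = 0.6), as they did in all 3 member bodies against 7.59% of all bodies without overlap. Within libraries, the body exceeded the promoter by 75.8 points ± 2.78 (SD, n = 6), higher in 6 of 6 libraries (exact sign-flip permutation test, p = 0.03125, the smallest it can give). This body minus promoter difference was 76.3 ± 1.62 in STD and 75.3 ± 3.996 in ENR (exact permutation test, p = 0.8). Among protein-coding genes, 64.1% had a lower promoter level and 73.8% a lower body level than Gabrg3.

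Along Gabrg3, methylation changed with distance from the start. A cluster was a run of at least 3 sites with gaps of at most 200 bp. The cluster at 211 to 836 bp from the start averaged 3.22% over the 6 libraries. The next covered cluster, in an intron 23195 bp into the gene, was intermediate, and its mean was 33.4%, 37.6% and 32.5% in STD1 to STD3 and 19.3%, 16.7% and 31.2% in ENR1 to ENR3. The groups did not overlap, with ENR lower by 12.1 points ± 6.83 (limma SE, adjusted p = 1). One of its 3 sites, position 57363901 on the plus strand, was at 63.4%, 55.0% and 58.8% in STD1 to STD3 and at 51.1%, 14.6% and 21.1% in ENR1 to ENR3 (difference −30.2 points ± 15.6, limma adjusted p = 0.852). This site carried most of the cluster difference, because the 2 other sites averaged 22.2% in STD and 19.1% in ENR.
Gabrg3 intermediate intron cluster, chr7:57363899-57363995: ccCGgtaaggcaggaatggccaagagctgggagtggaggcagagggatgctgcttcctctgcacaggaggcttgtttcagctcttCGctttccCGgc

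Farther into the gene the clusters were more methylated, at 95.9%, 96.5% and 95.1% from 135342 to 244140 bp and at 82.5% and 69.5% in the farthest pair. The highest, 165988 bp from the start, averaged 96.4% in STD and 96.5% in ENR, and its 8 measured CpGs lie within the 73 bases below. It shows that dense CpGs in this gene were methylated away from the start.
Gabrg3 highest intron cluster, chr7:57221130-57221202: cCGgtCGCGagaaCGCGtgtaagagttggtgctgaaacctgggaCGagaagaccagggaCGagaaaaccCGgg
Another intron cluster of 4 sites, 244114 bp from the start, was at 96.5%, 95.0% and 100% in STD1 to STD3 and at 93.0%, 94.0% and 91.9% in ENR1 to ENR3. All STD values were above all ENR values, with a difference of −4.20 points ± 2.18 (limma SE, adjusted p = 1), or −2.78 points without STD3.

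**Figure D2:**
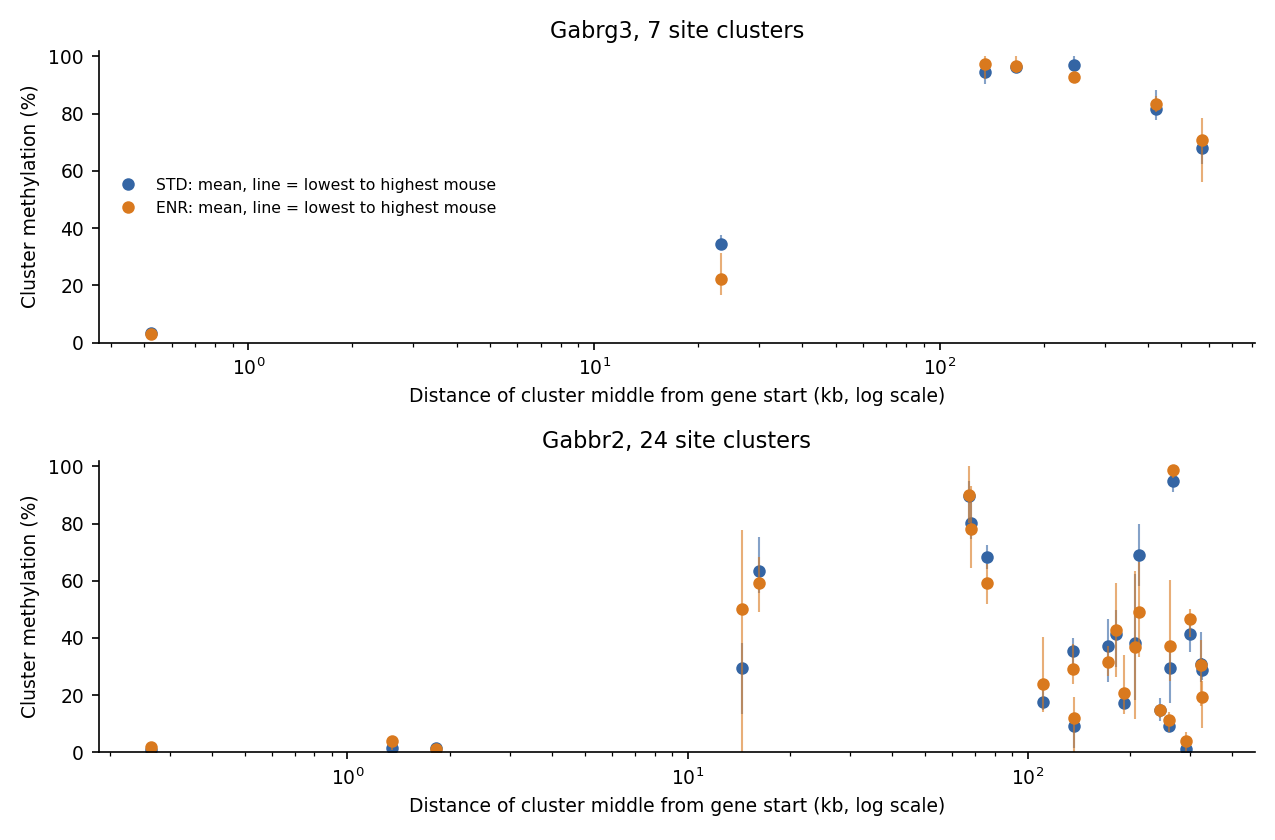
Mean methylation in percent of each site cluster in Gabrg3 (7 clusters, top) and Gabbr2 (24 clusters, bottom) against the distance of its middle from the gene start in kb on a log scale, with group means as points and the lowest to highest mouse as lines. Clusters near both starts are close to 0%, the far Gabrg3 clusters lie mostly above 80%, and Gabbr2 ranges from 1.404% to 96.8% over its length.

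Gabrd encodes the delta subunit and had too few sites to describe a gene profile. Its 4 body sites, all in an intron 10579 to 10717 bp from the start, averaged 60.5%, 70.4% and 78.2% in STD1 to STD3 and 78.1%, 75.7% and 43.1% in ENR1 to ENR3. The groups overlapped (difference −4.05 points, exact permutation test, p = 0.8), and without ENR3 the difference was 7.23 points in the other direction. The single promoter site, at −913 bp from the start, read 77.8%, 85.1% and 38.5% in STD1 to STD3 and 39.1%, 46.7% and 37.5% in ENR1 to ENR3. Its mean was 26.0 points lower in ENR, but STD3 fell within the ENR range (exact permutation test, p = 0.3), and the difference was −40.3 points without STD3 and −17.02 points without STD2. Body minus promoter was 13.5 points ± 26.0 over the 6 libraries (exact sign-flip permutation test, p = 0.25).

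Gabbr1, the GABA-binding subunit, had higher means in ENR. Its 86 sites averaged 2.60%, 1.96% and 2.37% in STD1 to STD3 and 4.14%, 3.16% and 4.44% in ENR1 to ENR3, and the groups did not overlap. The means were 2.31% ± 0.32 and 3.91% ± 0.672, a difference of 1.60 points (exact permutation test, p = 0.1, the smallest that 3 against 3 allows, and 0.75 after Benjamini-Hochberg adjustment over 15 such tests). In limma over all genes the unadjusted p was 0.0141 for the whole window, with an adjusted p of 1. Over all 22934 genes the groups did not overlap in 8.47%, and ENR was higher in 3.04%. Among the 7 members this held for 1 gene, Gabbr1, too few to set a share against the background. The difference stayed between 1.34 and 1.98 points when any 1 library was left out. It was not seen around the main start. With the promoter limited to 1 kb around the start of the gene record, 33 promoter sites averaged 1.22% ± 0.447 in STD and 1.20% ± 0.803 in ENR (difference −0.0254 points, exact permutation test, p = 1). The other 53 sites then averaged 3.45%, 2.15% and 3.36% in STD1 to STD3 and 5.72%, 4.04% and 7.04% in ENR1 to ENR3, without overlap (exact permutation test, p = 0.1).

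Nearly all sites of Gabbr1 fell into 4 clusters, and 3 of them did not separate the groups. At the gene start, 5 sites averaged 2.54% in STD and 3.33% in ENR. From 384 to 1262 bp, 43 sites averaged 1.42% and 1.34%, and from 3995 to 4100 bp, 19 sites averaged 3.24% and 2.02%. The last cluster, of 17 sites at 4896 to 5214 bp, lies downstream of 2 internal starts, each annotated for 1 protein-coding transcript, at positions 37050631 and 37050674, and covers coding exon and intron. It was at 3.59%, 0.318% and 1.49% in STD1 to STD3 and at 8.96%, 7.77% and 13.1% in ENR1 to ENR3. Every ENR mouse was above every STD mouse, by 8.13 points in the mean ± 1.67 (limma SE, unadjusted p = 0.00175, adjusted p = 1 over 71381 clusters). Leaving out any 1 library gave 6.57 to 9.22 points.

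Within this cluster the number of sites with methylated readings differed from mouse to mouse. In ENR, 9, 4 and 10 of the 17 sites were above 0% in ENR1, ENR2 and ENR3, against 3, 1 and 2 in STD1, STD2 and STD3. The ENR mean was higher at 13 sites, lower at 1 and equal at 3, and 11 sites were at 0% in all STD mice. ENR2 owed its level to 4 sites, of which the highest reached 43.8%. STD1 reached 45.7% at 1 site. The site at position 37051129, 455 bp from the nearer of these starts, was the one whose groups did not overlap. It was at 0% in all 3 STD mice and at 29.4%, 10% and 64.3% in ENR1 to ENR3, a difference of 34.6 points ± 14.3 (limma SE, adjusted p = 0.852), or 19.7 points without ENR3. Without this site the cluster still stood at 3.82%, 0.338% and 1.58% in STD and at 7.68%, 7.63% and 9.87% in ENR. The first stretch below holds 9 of the measured CpGs. The second holds position 37051129, the second CpG in capitals, with the neighbour that gave the STD1 reading before it.
Gabbr1 cluster downstream of the internal starts, first stretch, chr17:37050983-37051098: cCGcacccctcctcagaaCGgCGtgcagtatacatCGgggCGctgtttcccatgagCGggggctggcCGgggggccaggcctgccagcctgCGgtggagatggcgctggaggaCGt
Gabbr1 cluster downstream of the internal starts, second stretch, chr17:37051120-37051149: gcCGgactaCGagctcaagcttatccacca

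**Figure D3:**
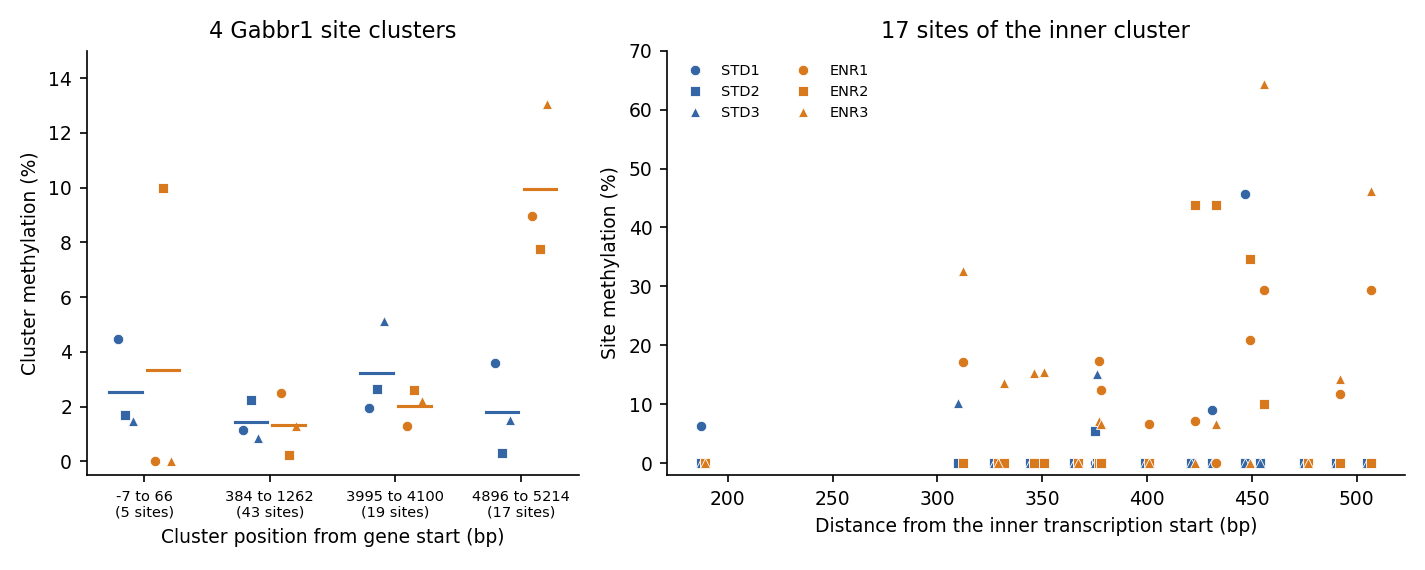
Left, mean methylation in percent of the 4 Gabbr1 site clusters by their distance from the gene start in bp, with 1 point per mouse and group means as lines. Right, each of the 17 sites of the last cluster by distance from the nearest internal transcription start in bp. The ENR mice lie at 7.77% to 13.1% and the STD mice at 0.318% to 3.59% in the last cluster, while the other clusters overlap, and single sites in ENR reach 64.3%.

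Gabbr2, the subunit that couples to the G protein, had the most covered sites of the members. Its 76 promoter sites averaged 7.68%, 7.03% and 6.86% in STD1 to STD3 and 7.96%, 8.17% and 8.46% in ENR1 to ENR3, so all ENR mice were above all STD mice. The means were 7.19% ± 0.435 and 8.20% ± 0.248, a difference of 1.00 point (exact permutation test, p = 0.1, adjusted 0.75 over 15 tests; limma adjusted p = 0.998). With Gabbr1, 2 of 6 member promoters did not overlap between groups, both higher in ENR, against 9.46% of all promoters and 3.8% for the higher direction, but the Gabbr1 groups overlapped once the promoter was limited to the start of the gene record. The promoter value mixes different places. At the main start, 71 sites at 61 to 469 bp were at 1.41%, 0.703% and 0.922% in STD1 to STD3 and at 1.76%, 1.70% and 2.01% in ENR1 to ENR3. This cluster also separated the groups, by 0.81 points ± 0.516 (limma SE, adjusted p = 1). Around an internal start at position 46724391, 5 sites from 267472 to 267604 bp downstream of the main start were at 94.9% in STD and 98.7% in ENR.

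Low methylation extended beyond the promoter of Gabbr2. Clusters at 1262 to 1451 bp and 1654 to 1984 bp, both classed as body, averaged 2.82% and 1.404% over the 6 libraries. The 168 body sites together averaged 32.1%, 33.9% and 26.5% in STD1 to STD3 and 33.3%, 32.8% and 25.6% in ENR1 to ENR3. The third mouse of each group was the lowest, the groups overlapped, and the means of 30.8% ± 3.81 and 30.5% ± 4.30 differed by −0.28 points (exact permutation test, p = 0.9). Among protein-coding genes, 27.6% had a lower body level than Gabbr2, whose body lay below the median of 54.1%. Its body exceeded its promoter by 23.0 points ± 3.74 (SD, n = 6), higher in 6 of 6 libraries (exact sign-flip permutation test, p = 0.03125).

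Most large site differences lay in the Gabbr2 introns, where most intermediate sites also lay. A difference of group means over 25 points, the size limit of the study, was found at 19 of the 601 member sites, 9 lower and 10 higher in ENR, beside 1.94% of all sites (1.23% lower and 0.706% higher). Gabbr2 held 14 of them, 7 in each direction, all in introns. Gabbr1 held 2, and Gabra5, Gabrg3 and Gabrd held 1 each. Sites with an intermediate overall mean of 20% to 80% can move farther, and 16 of 101 such member sites passed the limit (15.8%) against 11.0% of all such sites. Gabbr2 held 81 of these 101 sites. The smallest difference over the limit was 25.2 points, in Gabbr1, and the largest under it 23.7 points, in Gabbr2. The STD and ENR ranges were separate at 5 of the 19 sites. The share without overlap among all sites over the limit was not computed, so this count is a description only. With limma, 0 of the 417 member sites that varied were called, as was true of all 615152 sites tested, and 7 had an unadjusted p under 0.05 against 2.68% of all. That count was 12 of 391 sites without STD1 (2.90% of all), 8 of 393 without STD2 (2.94%) and 13 of 396 without STD3 (3.54%). It was 15 of 398 without ENR1 (3.29%), 18 of 405 without ENR2 (3.13%) and 19 of 399 without ENR3 (3.31%). No share above or below the background was therefore read from this count. Groups did not overlap at 17 of the 417, 9 higher and 8 lower in ENR, against 5.77% of all (2.39% higher and 3.38% lower).

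The largest of these 5 was at position 46779434, in an intron 212439 bp from the Gabbr2 start. It was at 86.7%, 95.7% and 75% in STD1 to STD3 and at 63.0%, 69.2% and 0% in ENR1 to ENR3, a difference of −41.7 points ± 18.7 (limma SE, adjusted p = 0.852). ENR3 carried much of this, and without it the difference was −19.7 points. Both other sites of the cluster also had lower means in ENR, and they averaged 60.6% in STD and 51.4% in ENR. The site is the first CpG in capitals below.
Gabbr2 intron cluster, chr4:46779432-46779477: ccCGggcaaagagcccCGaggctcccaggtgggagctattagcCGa

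A cluster at 16197 to 16334 bp into Gabbr2 held 6 of the 14 large differences, and they did not point one way. Position 46975559 on the minus strand was at 58.3%, 67.7% and 59.3% in STD1 to STD3 and at 85.7%, 100% and 90.9% in ENR1 to ENR3, higher by 30.4 points ± 7.36 (limma SE, unadjusted p = 0.00342, adjusted p = 0.852). At the other end of the cluster, position 46975676 was at 68.0%, 81.8% and 72.2% in STD1 to STD3 and at 73.9%, 21.7% and 0% in ENR1 to ENR3. Positions 46975607 and 46975619 on the same strand had the same pattern, with ENR3 at 0% and ENR2 at 21.7% and 22.7%. Sites this close can be covered by the same reads, so they may not be separate observations. All 6 large differences of this cluster were on the minus strand. Over all 10 sites the cluster averaged 63.5% ± 10.5 in STD and 59.3% ± 9.77 in ENR, and the groups overlapped.
Gabbr2 intron cluster of mixed directions, chr4:46975537-46975678: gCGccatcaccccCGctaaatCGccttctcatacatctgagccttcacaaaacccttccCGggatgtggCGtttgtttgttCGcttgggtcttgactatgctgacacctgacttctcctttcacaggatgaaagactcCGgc

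Both strands of a CpG gave a second reading of the same place. In the member genes, 107 CpGs were read on both strands, and 12 of these, all in Gabbr2, had a mean of 20% to 80%. Several of the 12 lie close together and can share reads, so they are not 12 separate places. At these 12 the strands of 1 library differed by a median of 18.7 points. The ENR minus STD difference had the same sign on both strands at 6 of the 12. The strand gap was wider in ENR, with medians of 12.8, 12.7 and 11.3 points in STD1 to STD3 and 27.1, 34.3 and 29.3 points in ENR1 to ENR3. Over 11772 CpGs of the whole table with the same range of means, the medians were 13.5, 13.7 and 17.02 points in STD1 to STD3 and 16.1, 18.4 and 17.3 points in ENR1 to ENR3. The wide ENR gap at the 12 Gabbr2 CpGs was noticed after the values were seen, and its part in the site differences was not tested. The position 46975619, at 78.4% in STD and 33.7% in ENR, had a plus-strand partner whose mean was only 5.11 points lower in ENR.

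**Figure D4:**
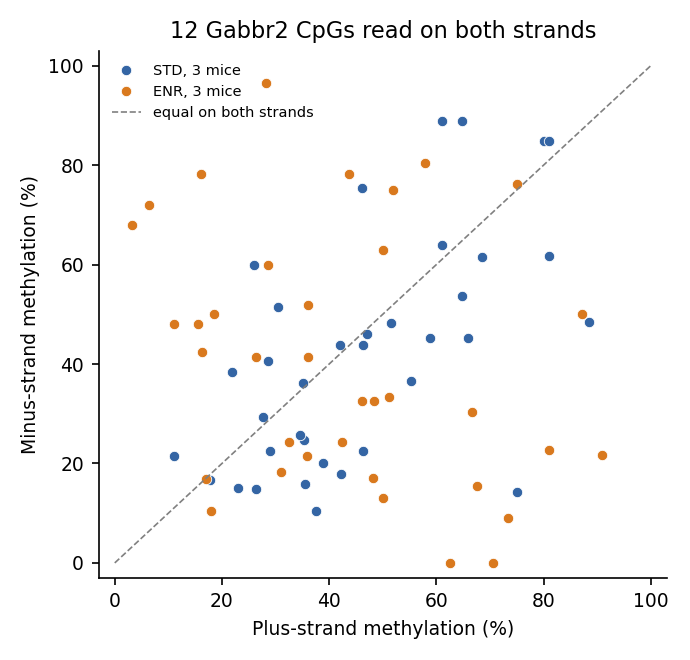
Methylation in percent on the minus strand against the plus strand at the 12 Gabbr2 CpGs with a mean of 20% to 80%, with 1 point per CpG and mouse, STD in blue and ENR in orange, and a dashed line where both are equal. ENR points lie farther from the line than STD points, with median gaps of 27.1 to 34.3 points against 11.3 to 12.8 points. Neighbouring CpGs among the 12 can share reads.

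In all, the 7 genes held 40 clusters, and limma called 0 of them, with 1 (the Gabbr1 cluster downstream of the internal starts) at an unadjusted p under 0.05, against 4% of all clusters. It was 3 of 40 without ENR1 (5.38% of all) and 5 of 40, 4 of them higher in ENR, without ENR3 (4.90% of all). The groups did not overlap in 5 of the 40, 2 higher and 3 lower in ENR, against 8.81% of all (3.46% higher and 5.34% lower). The fifth was a Gabbr2 intron cluster 325834 bp from the start, at 33.0%, 25.4% and 27.8% in STD1 to STD3 and at 25%, 8.52% and 24.7% in ENR1 to ENR3. Its difference of −9.30 points ± 6.49 (limma SE, adjusted p = 1) was −3.85 points without ENR2.

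Libraries differed in their overall level, which bears on intermediate sites. The mean over all sites was 22.5% to 24.3% in STD and 21.3% to 24.2% in ENR, lowest in ENR3. Over the 101 intermediate member sites the means were 50.1%, 53.2% and 44.6% in STD1 to STD3 and 52.7%, 50.0% and 38.1% in ENR1 to ENR3. ENR3 was also the lowest library at 6 of the 14 large Gabbr2 differences and had the lowest Gabrd mean. The part of this in those results was not tested.

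The promoter windows of RefSeq (GRCm38.p6, from 250 bases before to 50 after the start) were available for 6 of the 7 members, all but Gabrd. Their CpG numbers were 46 in Gabbr2, 25 in Gabra2, 18 in Gabbr1, 13 in Gabrg3 and Gabra5 and 12 in Gabra4, against a median of 7 over 32851 promoters. The RRBS cutting site CCGG was found in 5 of the 6, against 52.8% of all promoters. The window of Gabrg3 had no CCGG and 0 measured sites, so its promoter values come from farther downstream. Over all protein-coding genes the median promoter level was 2.04%, and 47.3% of genes lay below Gabra2, 16.2% below Gabra4, 39.7% below Gabra5, 63.1% below Gabbr1 and 78.7% below Gabbr2.

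Other genes of GABA signalling were taken from a list of 44, of which 40 had at least 3 sites and 1 (Insyn2) had no record of that name in GENCODE M21. The list is not independent of the members, because the windows of 2 listed genes, Gabrb1 among them, contain all Gabra4 or all Gabra5 sites. For the whole window limma called 0 of the 40, with 2 at an unadjusted p under 0.05, and ENR was higher in 16 and lower in 24. The median difference was −0.14 points, beside −0.19 points over all protein-coding genes. The groups did not overlap in 2 of the 40, Gabarapl1 and Plcl1, against 8.47% of all genes, and 3.86% of all genes had an unadjusted p under 0.05. Gabarapl1, a relative of the GABA-A receptor trafficking protein GABARAP, averaged 1.19% in STD and 2.20% in ENR. Plcl1, which encodes a protein that binds GABA-A receptors and phosphatases, averaged 13.4% in STD and 12.3% in ENR.

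By function, 0 genes were called in any of the 4 groups. Of 13 other GABA-A subunit genes, 5 were higher and 8 lower in ENR. The highest level was that of Gabrr2, a rho subunit, at 96.6%. Gabrr3, another rho subunit, had the widest difference at −14.1 points over 3 sites, with overlapping groups. Of 8 genes for GABA synthesis, transport and breakdown, 3 were higher and 5 lower, and the levels ran from 3.14% in Aldh5a1, which oxidises succinic semialdehyde, to 66.2% in Slc6a13, a GABA transporter. Of 11 scaffold and trafficking genes, 5 were higher and 6 lower, and the lowest level was 1.03% in Gabarapl2. Of 8 genes for GABA-B partners and chloride transporters, 3 were higher and 5 lower, from 1.21% in Kctd12, a GABA-B auxiliary subunit, to 47.3% in Kcnj6, a GIRK channel subunit.

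**Figure D5:**
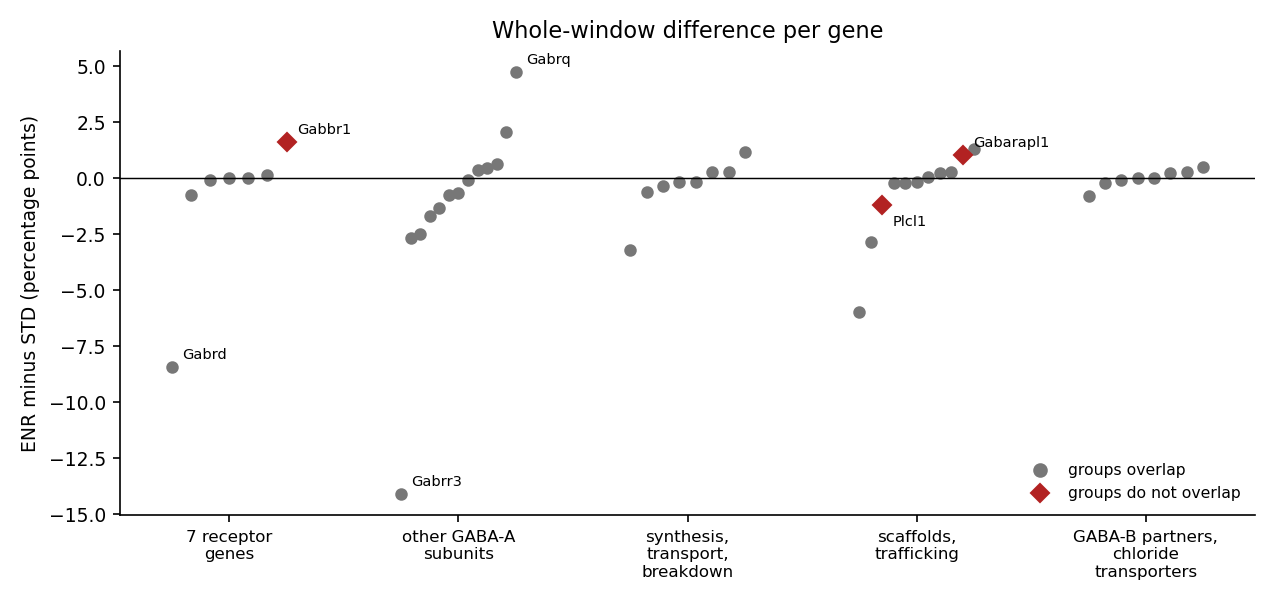
ENR minus STD difference in percentage points of the whole-window mean of each gene with at least 3 sites, for the 7 receptor genes and the 4 groups of other GABA genes, with red diamonds where the groups do not overlap. Most genes lie within a few points of 0, Gabbr1 is at 1.60, and Gabrd and Gabrr3 at −8.45 and −14.1 have overlapping groups.

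The gene most like a member in level over the 6 libraries was named by the smallest root mean square difference among 46 genes. Gabra4 lay 0.133 points from Kctd12. Gabbr1 lay 0.708 points from Slc32a1, the vesicular GABA transporter, and Gabbr2 1.88 points from Lhfpl4, a GABA-A receptor scaffold. Gabrg3 and Gabrd had more distant matches, at 4.92 points from Gabrb1 and 9.87 points from Slc6a13.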

How the data were processed

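RRBS libraries of dentate gyrus from 3 STD and 3 ENR mice were analysed. The authors trimmed reads, aligned them to mm10, counted methylated reads and deposited, per cytosine and library, the percent of methylated reads at sites with at least 10 reads and without extreme coverage. The submitters' processing notes name Trim Galore 0.4.0, cutadapt 1.8.1, Bismark 0.16.1 and methylKit 1.5.2. The 890041 sites had no missing value and 0 value columns were left unused. Read numbers were not used here, so precision comes from the spread between mice alone, and the authors' test on reads per cytosine could not be run.

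The 7 genes and all lists were chosen with earlier results of these data known. Sites were annotated with GENCODE M21 (window, promoter and body as in the results). Values were averaged over sites per library without normalization. Group means of 1 value per library were compared by two-sided exact permutation tests over 20 regroupings (smallest p 0.1), and body with promoter by two-sided exact sign-flip tests. Sites that varied, clusters and genes with at least 3 sites were fitted with limma 3.58.1 in R 4.3.3 (eBayes with a variance trend) over the whole table with Benjamini-Hochberg adjustment, after a check on simulated data. A site call also needed a difference over 25 points. All 7 members are described. Named sites were the up to 3 widest differences per gene over 25 points without overlap, and named clusters the highest, the lowest and up to 2 without overlap. Strand readings, the counts within the Gabbr1 cluster and other sites and genes named were chosen after their values were seen. Alternatives covered medians, averaged strands, intermediate sites, 2 normalizations, promoter definition, limits, scales, cluster gaps and left-out libraries. Single results on some genes of the list are not reported here.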

Additional observations from a re-analysis of the deposited data

How the results depend on the processing

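Directions of small promoter differences depended on the scale, and the causes were not tested. With medians over sites the ENR minus STD difference was 0 for Gabra2, Gabra4, Gabra5 and Gabbr1 over the whole window and 0 for the Gabra2, Gabrg3 and Gabbr2 promoters. Medians also turned the Gabrg3 body difference and its body minus promoter difference to 2.33, and gave a Gabra2 body minus promoter level of 14.3 points with p = 0.03125 (exact sign-flip permutation). Quantile normalization gave 0.286 for Gabra2, 0.237 for Gabra4, 0.183 for Gabra5, 0.172 for the Gabrg3 promoter and 0.709 for the Gabbr2 body. Centring libraries by level class gave 0.0402 for Gabra2, 0.116 for Gabra4, 0.12 for Gabra5 and 1.04 for the Gabbr2 body. Averaged strands gave 0.0904 for Gabra4 and 0.191 for Gabra5, and intermediate sites alone −1.88 for Gabbr2. With the promoter limited to the start of the gene record, the Gabbr1 promoter difference turned to −0.0254 and that of Gabra5 to 0.0569. The Gabbr1 whole window kept its direction in every setting run but medians, yet the unadjusted limma p of Gabbr1 was not under 0.05 after quantile normalization or without STD2 in either fit, nor, in the promoter fit, without STD1, STD3, ENR1 or ENR3.

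Of the 19 sites over 25 points, 6 passed 40 points (0 higher in ENR) and 5 had groups that did not overlap (2 lower, 3 higher). The matching shares over all sites were not computed. Group medians in place of means gave a set of 26 sites over 25 points, 15 lower and 11 higher. Same replicate numbers correlated at 0.0552, 0.0319 and 0.125 in their deviations over sites, and different numbers at −0.0820 to 0.0410. The numbers were taken as names and not as pairs, which these values do not settle. With the replicate number as a block, 9 sites passed (4 lower, 5 higher), and limma with the block called 0 member sites, clusters and genes, as did all other limma settings. Member sites at an unadjusted limma p under 0.05 numbered 7 of 417 in the fit described above (2.68% of all). They numbered 12 with the block (2.57%), 9 after quantile normalization (2.85%), 20 without a variance trend (4.19%) and 21 on the arcsine scale (3.67%).

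When each library was left out in turn, the whole-window differences ran from −0.379 to 0.392 in Gabra2, −0.108 to 0.104 in Gabra4, −0.349 to 0.242 in Gabra5, −1.50 to −0.377 in Gabrg3, −13.2 to 0.94 in Gabrd, 1.34 to 1.98 in Gabbr1 and −1.41 to 1.78 in Gabbr2. Promoter differences ran from −0.204 to 0.668 in Gabra2, −0.866 to 0.124 in Gabrg3, −40.3 to −17.02 in Gabrd and 0.837 to 1.25 in Gabbr2. Body differences ran from −11.1 to −3.66 in Gabra2, −3.17 to 0.179 in Gabrg3, −10.3 to 7.23 in Gabrd and −2.42 to 2.20 in Gabbr2. Differences of body minus promoter ran from −11.0 to −3.45 in Gabra2, −2.999 to 0.997 in Gabrg3, 12.0 to 40.5 in Gabrd and −3.26 to 1.32 in Gabbr2. Body minus promoter levels ran from 9.97 to 15.01 in Gabra2, 75.1 to 76.7 in Gabrg3, 8.31 to 19.7 in Gabrd and 22.2 to 24.2 in Gabbr2, where 5 libraries cannot give an exact p under 0.0625. Sites over 25 points numbered 17 to 25, with 7 to 15 higher and 9 to 17 lower, the 17 lower being those without ENR1.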
